A study of Mus musculus with 4 samples.

Results

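Klrg1 and 6 further killer lectin-like receptor genes, Klrb1a, Klrb1c, Klra17, Klrd1, Klrk1 and Klrc1, were followed in regulatory T (Treg) cells of fat and spleen. These 7 genes were taken by name from the 23284 gene symbols of the deposited count files, and all 7 were found. They were picked with their values in these libraries known, so their levels are described here without a test. The study sequenced RNA of sorted Treg cells from C57BL/6 mice aged 12 to 13 months, in 4 libraries with 1 library per group. The groups were WT spleen, PPARg-2KR spleen (2KR spleen), WT epididymal white adipose tissue (WT eWAT) and PPARg-2KR eWAT (2KR eWAT), and the spleen cells served as the controls. The labels give only the name of the PPARg-2KR genotype, which is known elsewhere as a knock-in allele whose PPARG protein has lysines replaced by arginine. No other allele, agent or treatment is named, and whether animals were pooled and which markers gated the sort is not stated. With 1 library per group there is no replicate error, so each ratio between libraries is given with an interval for counting error only. Where 4 values of a gene are listed, they run from the spleen library of WT and that of 2KR to the fat library of WT and that of 2KR.

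Killer lectin-like receptors are type II membrane proteins of the C-type lectin-like superfamily, best known from natural killer (NK) cells. In the mouse most of their genes lie side by side in the NK gene complex. Many of the receptors are either inhibitory, through a cytoplasmic motif of their own, or activating, through adaptors such as DAP10 (Hcst) and DAP12 (Tyrobp). KLRG1 is an inhibitory receptor for classical cadherins. On Treg cells it is a textbook marker of terminally differentiated effector cells, which are common in tissues such as visceral fat. PPARG, a nuclear receptor, is known as a regulator of the visceral fat Treg population.

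The gene copies of this family are similar enough to share reads, which limits what each count means. The aligner allowed 4 mismatches in a 100 base read. Every stretch of 100 bases in a member's transcript with the longest coding sequence was therefore compared with all other mouse transcripts at that tolerance, using GENCODE transcripts of the GRCm38 build. Klrg1, Klra17, Klrd1 and Klrk1 had 0 such stretches shared with another gene. For Klrk1 the transcript searched had 1270 bases, against 3158 and 3262 in the authors' transcript models. For Klrb1c it had 1658, against 2632 and 2623. The remainder of those models was not searched. In Klrb1a 197 of 1175 stretches (16.77%) were shared, mostly with Klrb1c and Klrb1b. Klrb1c shared 550 of 1559 (35.28%), with the copy Gm44511, Klrb1a and Klrb1b. At this tolerance Klrc1 was the least separable, with 1235 of 1885 stretches shared (65.52%), of which most matched Klrc2. The Klrc1 transcript searched had 1984 bases, against 735 and 684 in the authors' models, so part of these stretches lies outside those models. With no mismatch allowed, Klrb1c shared the most, 330 stretches (21.17%). Klrc1 then shared 300 (15.92%) and Klrb1a only 9 (0.77%). As the rule for counting reads with several hits is not known here, Klrb1a, Klrb1c and Klrc1 counts are uncertain in this respect.

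The next sequences show how close these copies are within the coding sequence, in the 5′ to 3′ direction of the transcript. Bases 67 to 166 of the Klrb1a coding sequence are also present, letter for letter, in Klrb1c, so a read from here cannot be given to either gene.
Klrb1a: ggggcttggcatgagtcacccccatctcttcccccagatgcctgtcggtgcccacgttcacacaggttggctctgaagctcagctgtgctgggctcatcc
Klrb1c: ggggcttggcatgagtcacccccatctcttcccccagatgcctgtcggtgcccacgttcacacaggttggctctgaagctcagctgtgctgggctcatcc
The same holds for bases 341 to 440 of the Klrc1 coding sequence and Klrc2.
Klrc1: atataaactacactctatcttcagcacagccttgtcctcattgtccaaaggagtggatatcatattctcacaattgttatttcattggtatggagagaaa
Klrc2: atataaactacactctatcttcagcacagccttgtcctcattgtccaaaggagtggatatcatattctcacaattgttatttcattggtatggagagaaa
Klra17 is shown as the contrast, since the closest stretch found in another gene, for bases 1 to 100 of its coding sequence against Klra1, still differs at 10 bases. Capitals mark the differing bases.
Klra17: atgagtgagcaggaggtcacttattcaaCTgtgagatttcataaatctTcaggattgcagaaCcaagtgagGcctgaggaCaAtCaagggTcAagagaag
Klra1: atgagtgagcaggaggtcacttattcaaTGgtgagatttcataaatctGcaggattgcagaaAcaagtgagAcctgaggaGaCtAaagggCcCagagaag

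Klrg1 had the most reads of the 7 genes, in every library. It gave 1212 reads in the spleen of WT, 1936 in that of 2KR, 21487 in the fat of WT and 6998 in that of 2KR. In CPM (read counts scaled to library size, here with TMM factors) these are 97.9, 127, 1984 and 726. Both fat libraries stood above both spleen libraries, and WT eWAT stood highest. As bulk RNA was measured, more Klrg1-positive cells and more Klrg1 RNA per cell cannot be told apart, here and for every gene below.

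Compared per transcript length, in the authors' FPKM values, Klrg1 was also first in each library. Its FPKM was 73.5 and 97.0 in spleen (WT, then 2KR) and 1567 and 699 in fat. That was 12.8, 22.9, 54.6 and 12.0 times the summed FPKM of the other 6 genes. The order below Klrg1 differed between libraries. In WT eWAT Klrd1 was next at 16.4 FPKM (Cufflinks interval 13.5 to 19.4), followed by Klrk1 at 7.70 (6.75 to 8.65) and Klrc1 at 2.14 (0.831 to 3.46). Klrb1c, Klra17 and Klrb1a came last there, at 0.905, 0.814 and 0.728 FPKM, with overlapping intervals. In 2KR eWAT the genes after Klrg1 were Klrb1a at 18.3 FPKM (15.4 to 21.3), Klrd1 at 15.4 (12.1 to 18.8) and Klra17 at 13.8 (11.2 to 16.4), neighbours whose intervals overlap. Klrb1a thus stood seventh of the members in WT eWAT and next to Klrg1 in 2KR eWAT.

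**Figure D1:**
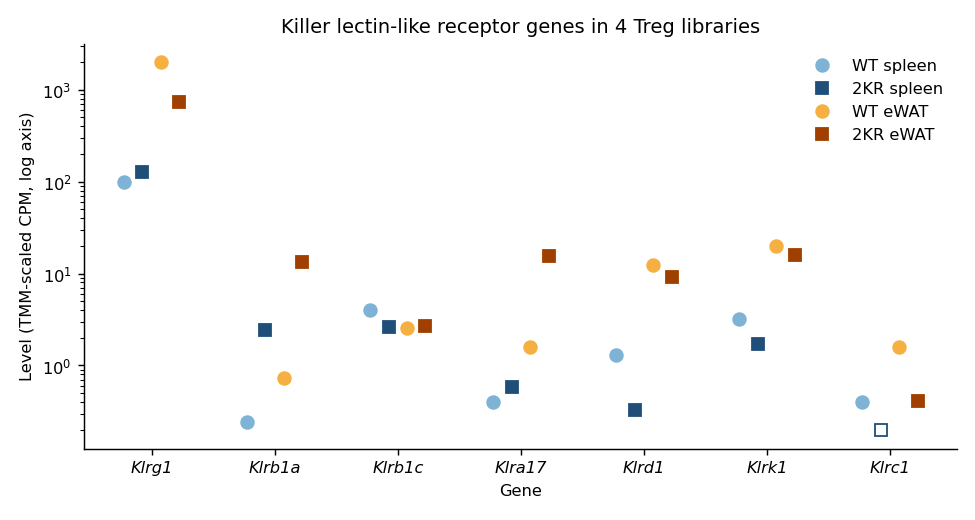
TMM-scaled CPM (log axis) of the 7 genes in the 4 libraries, 1 point per library; the open square is a library with 0 reads, drawn at its floor of 3 reads (0.197 CPM). Klrg1 sits far above the other genes in each library, and Klrb1a and Klra17 are highest in 2KR eWAT.

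Fat was set against spleen within each genotype, to ask how far these receptor genes mark the tissue population. On the log2 scale, with a prior count of 2 reads, the Klrg1 ratio of eWAT to spleen was 4.34 in WT (95% counting interval 4.26 to 4.43) and 2.51 in 2KR (2.44 to 2.59). That is a 20.2-fold higher level in WT and a 5.71-fold higher level in 2KR. Klrk1 and Klrd1 also had their lower values in spleen. Klrk1 encodes NKG2D, the activating receptor for stress-induced MHC class I-like ligands. It gave 40, 26, 215 and 155 reads (3.23, 1.70, 19.8 and 16.1 CPM). Both fat libraries stood above both spleen libraries, with a log2 ratio of eWAT to spleen of 2.56 (2.13 to 3.14) in WT and 3.12 (2.63 to 3.90) in 2KR.

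Klrd1 encodes CD94, the chain that pairs with NKG2 proteins to bind the non-classical class I molecule Qa-1. It gave 16, 5, 133 and 89 reads (1.29, 0.328, 12.3 and 9.23 CPM), and again both fat libraries were the higher ones. Its log2 ratio of eWAT to spleen was 3.09 (2.50 to 4.10) in WT and 4.25 (3.54 to 6.47) in 2KR. Klrc1 encodes NKG2A, the inhibitory partner of CD94, and its reads were few, at 5, 0, 17 and 4. In WT its ratio of eWAT to spleen was 1.61 (0.46 to 3.75). For 2KR no ratio is given, because the spleen library had 0 reads (a count of 0 allows up to 0.197 CPM) and the fat library had 4.

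Klra17 encodes Ly49Q, an inhibitory receptor for classical MHC class I that is best known from plasmacytoid dendritic cells. It gave 5, 9, 17 and 151 reads, or 0.404, 0.590, 1.57 and 15.7 CPM. One library, 2KR eWAT, held most of them. The log2 ratio of eWAT to spleen was 1.61 (0.46 to 3.75) in WT and 4.39 (3.77 to 5.89) in 2KR. Klrb1a and Klrb1c encode NKR-P1A and NKR-P1C, activating receptors, the latter being the NK1.1 antigen of C57BL/6 mice. Klrb1a gave 3, 37, 8 and 130 reads (0.242, 2.43, 0.738 and 13.5 CPM), with both 2KR libraries above both WT libraries. Its ratio of eWAT to spleen was 1.15 in WT, with an interval that includes 0 (-0.45 to 4.16), and 2.40 (1.94 to 3.04) in 2KR. Klrb1c gave 50, 40, 28 and 26 reads (4.04, 2.62, 2.58 and 2.70 CPM) and lay within a narrow band. Its log2 ratios of -0.61 (-1.37 to 0.05) in WT and 0.04 (-0.73 to 0.79) in 2KR were not distinguishable from 0 at this depth.

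Among genes that reached 5 CPM in at least 1 of the 2 libraries compared, 3 of 3 members in WT (Klrg1, Klrd1 and Klrk1) were 2-fold or more higher in eWAT, where 16.5% of all such genes were. In 2KR 5 of 5 members were (adding Klrb1a and Klra17), beside 22.6% of all genes. The members were chosen from these same values, so nothing is read from these shares. Across all genes the median log2 ratio of eWAT to spleen was -0.24 in WT and -0.28 in 2KR.

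Genotype was compared within each tissue, to ask how the changed PPARG relates to these genes. In eWAT Klrg1 was lower in 2KR than in WT by 1.45 on the log2 scale (ratio -1.45, interval -1.49 to -1.41), a level 2.73-fold lower. In spleen Klrg1 was higher in 2KR by 0.37 (0.27 to 0.48). The sizes of the ratios depend on how the libraries are scaled. With plain total counts the eWAT ratio of Klrg1 was -1.19, and the median of all genes moved from -0.08 to 0.17. A change of scaling shifts all well-read genes by about the same amount, so the gap of Klrg1 to that median cannot check its ratio. The Klrg1 ratio was below 0 under both scalings.

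Klrb1a and Klra17 went the other way in eWAT. Klrb1a was higher in 2KR by 3.92 (3.17 to 5.43), or 15.1-fold, from 8 reads against 130. In spleen it was also higher in 2KR, by 2.67 (1.66 to 5.67), from 3 reads against 37. It was the 1 member 2-fold or more higher in 2KR in both tissues, where 0.228% of all genes at 5 CPM in any library were. Klrb1a passed that filter through 2KR eWAT alone and stayed under 5 CPM in spleen, so nothing is read from this share. Klra17 was higher in 2KR eWAT by 3.19 (2.59 to 4.14), or 9.12-fold, while its spleen ratio of 0.41 had an interval from -1.18 to 2.47. A genotype difference of Klra17 was thus not detectable in spleen at this depth.

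For the NKG2 and CD94 receptor genes the genotype ratios were below 0 in both tissues by read counts. In eWAT the ratio of 2KR to WT was -0.40 (-0.81 to -0.01) for Klrd1 and -0.30 (-0.61 to 0.00) for Klrk1. With plain total counts these 2 eWAT ratios were -0.15 for Klrd1 and -0.04 for Klrk1. By the deposited FPKM they were -0.09 and 0.09. The sizes of both thus depend on the scaling, and the direction of Klrk1 on the unit. In spleen the ratios were -1.56 (-3.78 to -0.46) for Klrd1 and -0.86 (-1.69 to -0.17) for Klrk1, from at most 40 reads. Klrc1 in eWAT had a ratio of -1.58 (-3.95 to -0.30), from 17 and 4 reads. Klrb1c did not differ detectably at this depth in either tissue, with 0.06 (-0.77 to 0.89) in eWAT and -0.59 (-1.26 to 0.01) in spleen.

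Of the 5 members at 5 CPM in eWAT, 2 were 2-fold or more higher in 2KR (Klrb1a and Klra17), beside 5.21% of all genes, and 1 was lower (Klrg1), beside 2.37%. In spleen only Klrg1 reached 5 CPM, and it did not reach 2-fold, as for all but 0.31% (higher) and 0.839% (lower) of genes. These counts too rest on the values that chose the members. The 4 sets of ratios share libraries, each library entering a tissue and a genotype comparison, so they are set side by side and not counted as separate evidence.

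**Figure D2:**
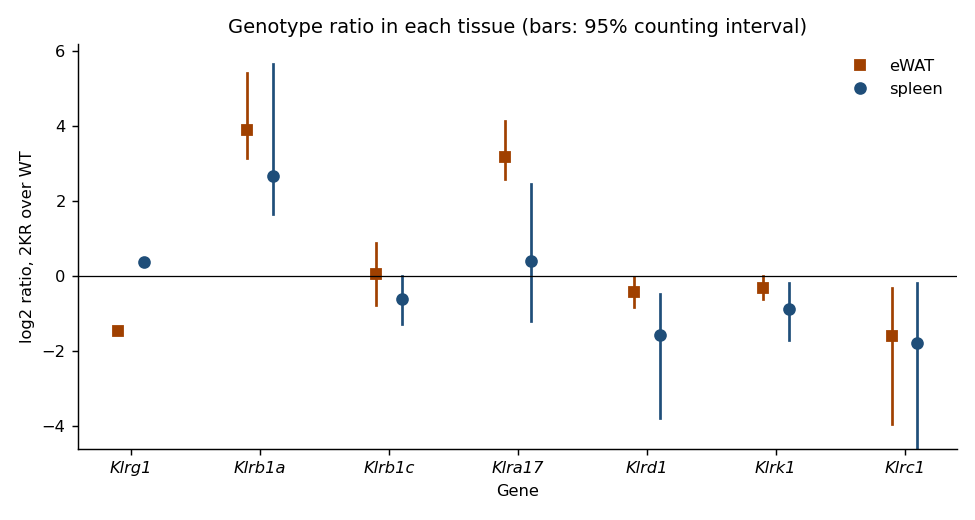
Log2 ratio of 2KR to WT for each gene in eWAT (squares) and spleen (circles), with 95% counting intervals as bars; the bar of Klrc1 in spleen, with 0 reads in 2KR, has no lower end. Klrg1 lies at -1.45 in eWAT and 0.37 in spleen, and Klrb1a is above 0 in both tissues.

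Each member had transcript-level values, in which the level of a gene is divided between its transcript models. For Klrb1a the authors' isoform file divides the 2KR eWAT level evenly, at 9.17 FPKM for NM_001159902 (6.58 to 11.8) and 9.18 for NM_010737 (6.76 to 11.6). In 2KR spleen the whole level of 2.22 FPKM was given to NM_010737. Klrk1 in eWAT was divided between NM_001083322, at 4.55 FPKM in WT and 3.50 in 2KR, and NM_033078, at 3.14 in WT and 4.70 in 2KR, with intervals that overlap between genotypes. In spleen the Klrk1 level was given almost wholly to NM_033078 in WT, at 1.29 FPKM (0.929 to 1.64). In 2KR spleen it was given almost wholly to NM_001083322, at 0.533 (0.316 to 0.749). Klrb1c was given almost wholly to NM_001159904 in both spleen libraries and to NM_008527 in both eWAT libraries. As these divisions changed between libraries, no difference in transcript use is read from them. Klrg1, Klra17 and Klrd1 each had 1 transcript model.

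All 7 genes lie on chromosome 6, as does Pparg (mm9 coordinates, chr6:115311239-115440419). Klrg1 stands apart from the others at chr6:122220619-122232851, 6.78 Mb beyond the end of Pparg. The rest lie in the NK gene complex, from Klrb1a (chr6:128559245-128572952, 13.12 Mb away) and Klrb1c (chr6:128728503-128738659) through Klrd1 (chr6:129541829-129548793), Klrk1 (chr6:129560339-129573859) and Klrc1 (chr6:129624877-129628928) to Klra17 (chr6:129781172-129826690, 14.34 Mb away). Pparg itself gave 5.73, 2.89, 129.5 and 63.9 CPM. As read counts do not show a changed amino acid, they do not check the genotype labels.

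Neighbouring genes were read for the same genotype ratio. Between the start of Klrb1a and Klra2 the files list 57 genes, of which 17 reached 5 CPM and 13 of those are not members. Of the 13, 0 were 2-fold higher in 2KR in both tissues and 0 were lower in both, beside 0.228% and 0.236% of all genes. In eWAT 2 were higher, Klrb1f and the dendritic cell lectin gene Clec9a, beside 5.21% of all genes. Klrb1f and Clec9a reached 5 CPM in eWAT only in 2KR. There 1 was lower, the activation marker Cd69, beside 2.37%. In spleen 9 of the 13 reached 5 CPM, of which 0 were higher and 1, Klrb1b, was lower, beside 0.31% and 0.839%. Nothing is read from these counts. The strain of origin of the changed Pparg allele is not stated, and its part in the Klrb1a values was not tested.

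**Figure D3:**
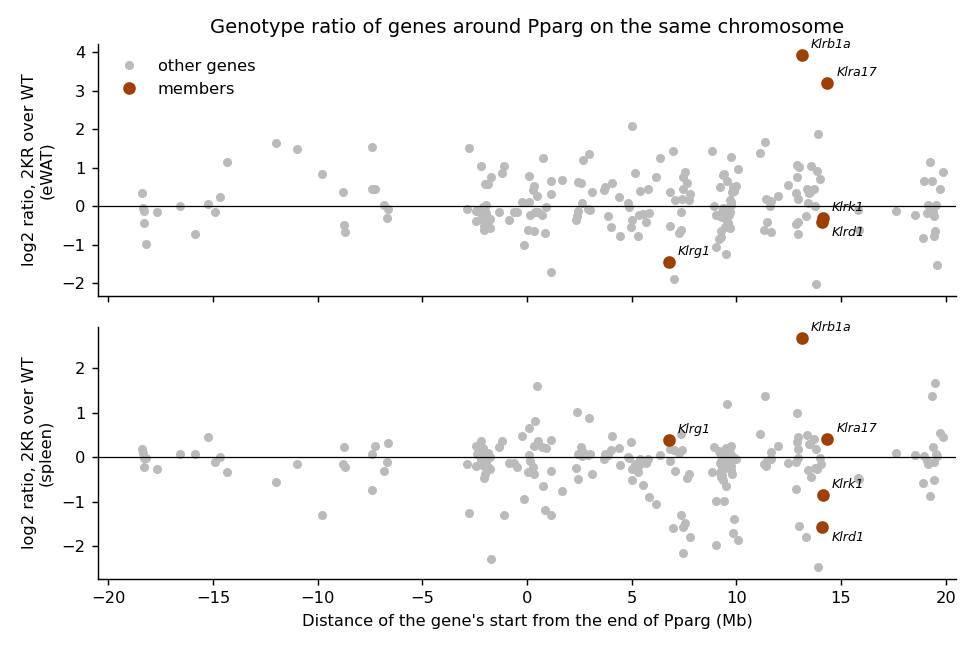
Log2 ratio of 2KR to WT in eWAT (top) and spleen (bottom) against the distance from the end of Pparg, for genes of the same chromosome that reached 5 CPM in a library; members are the larger points. Klrb1a lies above its neighbours in both panels, whereas Klra17 does so in eWAT.

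Klrb1a and Klrb1c are a pair of similar genes with different values, so their promoters were set side by side. The windows run from 250 bases before to 50 bases after the start in RefSeq (GRCm38.p6), on the minus strand, at chr6:128622885-128623184 for Klrb1a and chr6:128788592-128788891 for Klrb1c. Capitals mark bases that do not match the other promoter in their alignment.
Klrb1a promoter: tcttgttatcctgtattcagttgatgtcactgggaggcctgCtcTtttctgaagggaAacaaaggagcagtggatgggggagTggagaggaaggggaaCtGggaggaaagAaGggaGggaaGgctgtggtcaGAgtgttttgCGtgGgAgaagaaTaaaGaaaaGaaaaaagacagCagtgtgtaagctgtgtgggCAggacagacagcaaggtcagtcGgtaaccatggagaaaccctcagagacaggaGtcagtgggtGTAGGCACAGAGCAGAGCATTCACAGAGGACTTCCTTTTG
Klrb1c promoter: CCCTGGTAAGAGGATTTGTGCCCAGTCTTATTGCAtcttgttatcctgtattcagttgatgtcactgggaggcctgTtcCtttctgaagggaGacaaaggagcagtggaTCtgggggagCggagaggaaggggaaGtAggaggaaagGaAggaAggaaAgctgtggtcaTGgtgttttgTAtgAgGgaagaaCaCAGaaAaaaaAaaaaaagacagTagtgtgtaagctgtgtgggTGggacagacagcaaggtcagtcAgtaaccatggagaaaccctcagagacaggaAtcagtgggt
Of 260 aligned bases 236 were identical (90.8%). The motif AGGTCA, the half-site of PPARG and many other nuclear receptors, was searched on both strands. It occurs in both of these promoters and in neither Klrk1, Klrc1 nor Klra17. Klrg1 and Klrd1 had no entry in the table. Among all 32851 promoters of this length 5340 (16.3%) hold these letters, and a match is a description, not a binding site.

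Low counts were set beside genes with no known lymphocyte role, by reads and not per length. The 1458 olfactory and vomeronasal receptor genes gave 3500, 2394, 6824 and 12245 reads in the 4 libraries, and 95% of them had at most 10, 7, 18 and 30 reads. Klrg1 exceeded every one of these genes in each library. Klrb1a exceeded all of them in both 2KR libraries, but in WT spleen and WT eWAT it exceeded 68.86% and 79.36% of them, so its WT reads lie within this background. Klra17 was above all of them only in 2KR eWAT, where the highest sensory receptor gene had 119 reads. Klrd1 in 2KR spleen, with 5 reads, exceeded 88.61% of them, so its ratios of 4.25 and -1.56 rest on a value within this background. Klrb1c in 2KR eWAT exceeded 92.8% and Klrc1 in 2KR eWAT 43.07%. The 2KR eWAT library, which held most Klra17 and Klrb1a reads, thus had the highest sensory receptor background too, and the part of that background in their values was not tested.

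**Figure D4:**
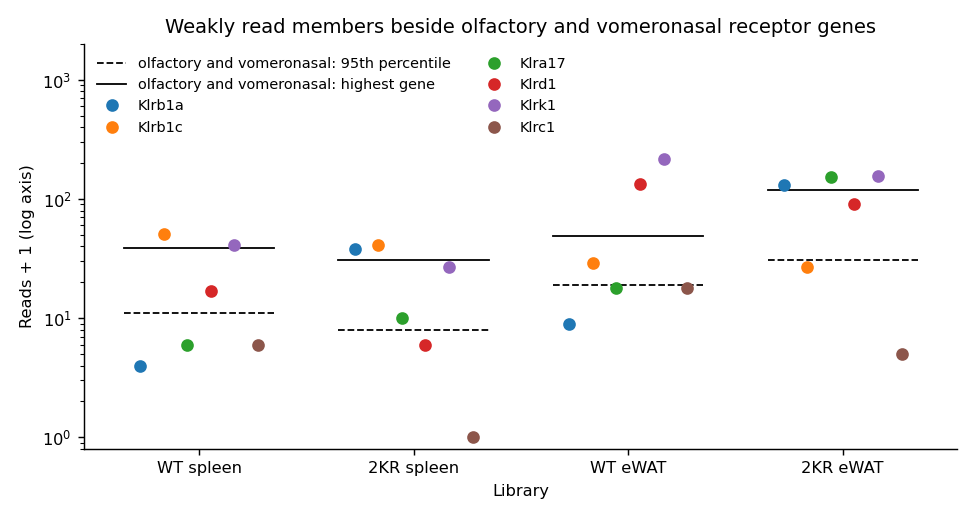
Reads plus 1 (log axis) of the 6 genes other than Klrg1 in each library, with the 95th percentile (dashed) and the highest (solid) of 1458 olfactory and vomeronasal receptor genes. Klrb1a and Klra17 are above the solid line in 2KR eWAT, and Klrc1 is below the dashed line in each library.

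Other genes of the receptor system were read from lists, using edgeR's quasi-likelihood test of eWAT against spleen with both genotypes of a tissue as its 2 libraries. Changes here are log2 fold changes of eWAT over spleen with their standard errors (SE), and p-values are Benjamini-Hochberg adjusted over all 16488 genes tested. In this test 33.7% of all genes passed with a higher level in fat and 23.2% with a lower one, and the median change was 0.11. Of 18 other killer lectin-like receptor genes found, 9 passed the filter on low counts. Of these, 8 had at least 10 reads in both eWAT libraries but only 2 in both spleen libraries, so most passed the filter through fat alone, which leaves little room for a lower call. The test called 8 higher in eWAT and 0 lower, and 1 did not pass; nothing is read from that count. The olfactory and vomeronasal receptor genes also had their higher sums in fat, at 283, 157, 630 and 1271 CPM, and the part of such background in these counts was not tested. Klrb1b, the inhibitory NKR-P1B receptor, was at 5.65, 1.51, 21.5 and 18.2 CPM (2.49, SE 0.48, adjusted p = 0.000984). Its change was 3.67 without the WT spleen library and 1.76 without the 2KR spleen library. All others but Klrb1f stayed under 5 CPM in each library. The count of 8 was 3 with DESeq2 and with limma on FPKM, 4 with genotype as a further term, 2 without the 2KR spleen library, and 3 without either eWAT library.

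Receptor adaptors moved in both directions. Of 18 adaptor and proximal signalling genes 4 rose in eWAT, 10 fell and 4 did not pass (median -0.62). Of all genes 33.7% rose and 23.2% fell. Those that rose were Tyrobp (3.90, SE 0.30, adjusted p = 3.48e-07), the tyrosine kinase gene Syk (3.50, SE 0.24, adjusted p = 1.31e-07), the phospholipase gene Plcg2 (3.23) and the Fc receptor gamma chain gene Fcer1g (2.94). Myeloid cells use these 4 genes as well. Tyrobp gave 10.3, 5.97, 92.0 and 148 CPM, and the summed level of 8 macrophage and monocyte markers was 116, 82.2, 1284 and 1601 CPM. The part of such cells in the Tyrobp values was not tested. The T cell kinase gene Zap70 fell by 1.37 (SE 0.21, adjusted p = 0.000165). Hcst, the NKG2D adaptor, was at 130, 100.1, 93.0 and 57.9 CPM and fell by 0.60 (SE 0.23, adjusted p = 0.0385). The Hcst call was lost without the WT spleen (adjusted p = 0.321), 2KR spleen (0.0637) or 2KR eWAT library (0.104), and the list's count of lower genes was 6 without WT spleen and 4 without 2KR spleen.

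Ligand genes were measured in the same cells. Of 19 ligand genes found 12 were tested, of which 5 were higher in eWAT, 3 lower and 4 did not pass (median 1.10). The shares of all genes were 33.7% higher and 23.2% lower. Of the 12, 9 had at least 10 reads in both spleen libraries, and all 12 did in both eWAT libraries. The Qa-1 gene H2-T23, ligand of CD94 with NKG2A, stood at 794, 680.1, 464 and 387 CPM and fell by 0.79 (SE 0.24, adjusted p = 0.0127). That call was lost without the WT spleen (adjusted p = 0.244) or 2KR spleen library (0.14). Clec2d and Clec2i both encode ligands of NKR-P1 receptors. Clec2d fell by 1.45 (adjusted p = 0.00258) and Clec2i fell by 1.93 (adjusted p = 8.9e-06). Cadherins of the classical type are the known ligands of KLRG1. Cdh1, E-cadherin, was at 1.21, 0.721, 4.06 and 6.02 CPM (2.38, SE 0.66, adjusted p = 0.00771), a call lost without 2KR eWAT (0.0532). Cdh4 rose by 3.44 from 0.727 and 1.05 CPM to 8.40 and 11.2 CPM. Without the 2KR spleen library 3 ligand genes were higher, and without the 2KR eWAT library 2.

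**Figure D5:**
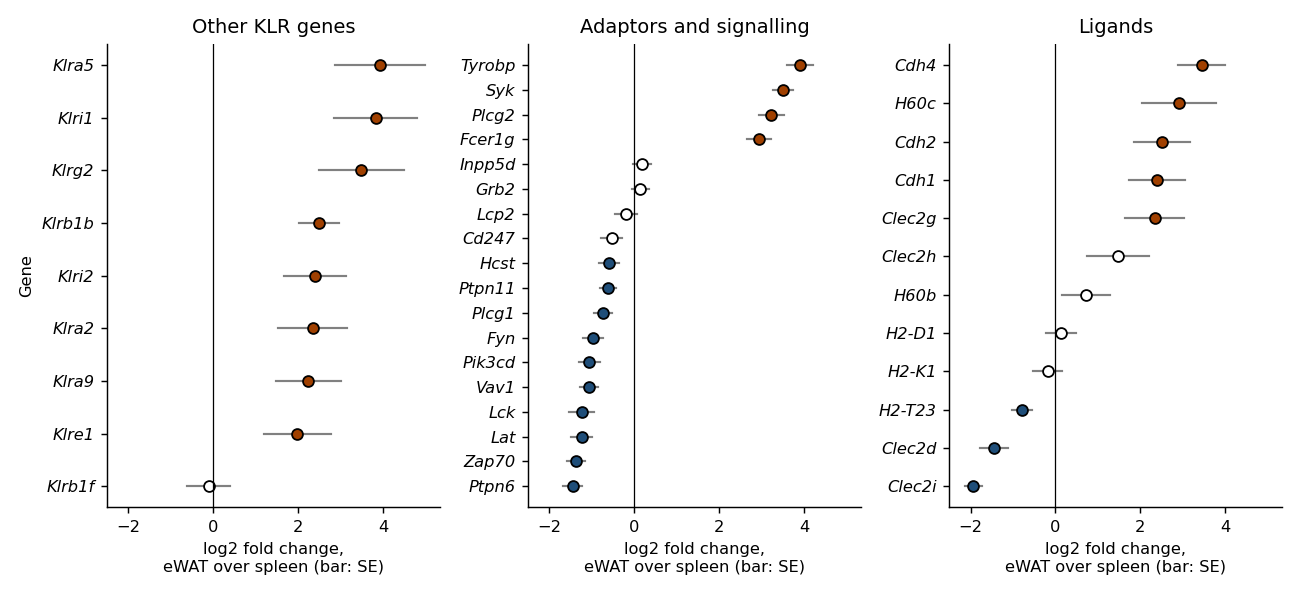
Log2 fold change of eWAT over spleen (points) with its SE (bars) for the tested genes of 3 lists; filled points passed an adjusted p of 0.05 and open points did not. In the adaptor panel 4 genes lie to the right and 10 to the left.

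Transcription factors known from receptor-bearing lymphocytes moved both ways. Of 14 genes 7 were higher in eWAT, 5 lower and 2 did not pass (median 0.65), beside 33.7% higher and 23.2% lower of all genes. Zeb2, known with KLRG1 from terminal effector T cells, was at 7.35, 2.03, 56.7 and 60.3 CPM (3.67, SE 0.40, adjusted p = 9.37e-06). Without the WT spleen library its change was 4.80, and without the 2KR spleen library 2.94. Macrophages also express Zeb2, and the part of the macrophage and monocyte markers given above in its values was not tested. Id3 and Tcf7, factors of less differentiated T cells, were lower: Id3 fell by 3.16 (adjusted p = 2.2e-07) and Tcf7 fell by 2.82 (adjusted p = 1.34e-06). Rora rose by 2.67, and by 2.01 without the WT eWAT library. Tbx21, the T-bet gene, was at 50.8, 30.6, 61.7 and 116 CPM (1.13, SE 0.29, adjusted p = 0.00509), a call lost without 2KR spleen (0.113), which also took the list's count of higher genes to 4. Gata3 was at 209, 225, 682 and 285 CPM, and its change of 1.16 (adjusted p = 0.00762) was 0.30 without the WT eWAT library (0.125). Its call was also lost without the WT spleen (0.0804) or 2KR spleen library (0.0695) and with DESeq2 (0.157).

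Effector genes of tissue Treg cells were read beside Klrg1. Of 16 genes 10 were higher in eWAT, 2 lower and 4 did not pass (median 1.30), beside 33.7% higher and 23.2% lower of all genes. In eWAT 7 of the 16 were 2-fold or more lower in 2KR and 0 were higher, with no test, beside 2.37% and 5.21% of all genes. With plain total counts, and likewise by the deposited FPKM, 3 were lower and 2 higher, alternatives chosen after the data were seen. In spleen 0 of them passed 2-fold in either direction. The receptor gene of interleukin 33, Il1rl1, gave 16.5, 27.0, 1428 and 277 CPM. Its libraries rank in the same order as those of Klrg1. Areg, the growth factor amphiregulin, gave 11.8, 10.8, 2068 and 386 CPM. Among the chemokine receptor genes, Ccr2 was at 24.4, 31.9, 1586 and 673 CPM and Cxcr6 at 20.8, 22.7, 953 and 165 CPM.

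Genes with the most similar profile were found among 9588 genes at 10 CPM or more in a library. Likeness is the largest gap in any of the 4 libraries between the log2 CPM profiles, each centred on its mean, so it is a description over 4 points. Nfkbiz, an inhibitor of kappa B family member, was the closest to Klrg1 (gap 0.14), at 122, 165, 2296 and 1016 CPM. Next were Lrrn4 (0.17), the calcium-binding protein gene S100a4 (0.24), the nuclear receptor gene Nr4a1 (0.27) and Klf4 (0.30). Ctla2a, Bcar3, Lztfl1, Hilpda and Pld1 completed the nearest 10, with gaps of 0.31 to 0.36. Klrk1 was nearest to Itga2, the CD49b gene, with a gap of 0.04, then to Rab3il1 (0.15) and the chemokine gene Ccl4 (0.18). Klrd1 had Phldb1 (0.17), Gja1 (0.21) and Armc2 (0.26). Klra17 and Klrb1a had no close partner. For both the nearest was the mast cell carboxypeptidase gene Cpa3, with gaps of 0.67 and 1.09.

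Markers of other cells were read as lists beside these values. Foxp3 was read in every library, at 1408, 1298, 1160 and 801 CPM, as was Cd3e, at 1387, 1161, 672 and 572 CPM. Cd3e fell in eWAT by 1.03 (SE 0.26). Its log2 fold change was -0.94 without the WT spleen library and -1.21 without the 2KR spleen library, and neither fit kept the call. Of the 7 Treg and T cell markers 1 was higher in eWAT, 3 lower and 3 did not pass, beside 33.7% higher and 23.2% lower of all genes. The macrophage and monocyte gene Lyz2 was at 19.8, 24.2, 1015 and 1209 CPM, above Foxp3 in 2KR eWAT. Foxp3 and Cd3e thus do not show how pure the sorted cells were. Of 10 NK cell and group 1 innate lymphoid markers 3 were higher in eWAT, 2 lower and 5 did not pass, near the same shares of all genes. Their summed level was 257, 189, 353 and 483 CPM. Ncr1, the defining NKp46 gene, was at 3.96, 2.03, 4.80 and 4.98 CPM, and Eomes at 8.88, 7.15, 3.23 and 2.59 CPM. Ncr1 did not pass the tissue test (adjusted p = 0.289), and Eomes fell by 1.45 (adjusted p = 0.0215), a call lost without the WT spleen library (0.0787). Cd8a was at 0.646, 0.393, 3.51 and 2.49 CPM, and the 4 CD8 T cell markers summed to 39.4, 47.3, 40.5 and 30.3 CPM. The part of NK and CD8 T cells in the values of Klrd1, Klrk1 and Klrc1 was not tested.

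The 7 markers of group 2 innate lymphoid cells, some of which can carry KLRG1, summed to 4.36, 10.7, 187 and 87.9 CPM. Il13 was at 0 reads in both spleen libraries and at 7 and 4 reads in WT and 2KR eWAT. Mast cell and basophil markers (8 genes) summed to 9.69, 7.93, 14.7 and 83.6 CPM. Of the 6 at 5 CPM in eWAT, 5 were 2-fold or more higher in 2KR, beside 5.21% of all genes. These 5, Tpsb2, Cma1, Cpa3, Fcer1a and Mcpt4, reached 5 CPM only in 2KR eWAT, so nothing is read from that count. The mast cell protease genes Tpsb2 and Mcpt4 had 4 and 0 reads in WT eWAT and 175 and 102 in 2KR eWAT, and both were at 0 in spleen. The innate lymphoid list was thus highest in WT eWAT, like Klrg1, and the mast cell list in 2KR eWAT, like Klra17 and Klrb1a. Other lists were highest in 2KR eWAT as well: B cell markers (5 genes) summed to 88.5, 76.8, 81.0 and 138 CPM, endothelial markers (6 genes) to 179, 194, 172 and 301 CPM, and 3 gamma-delta and NKT cell markers to 6.22, 3.54, 10.8 and 20.3 CPM. The 8 fibroblast and mesothelium markers summed to 7.51, 4.13, 545 and 230 CPM, highest in WT eWAT, and the 7 conventional dendritic cell markers to 16.2, 9.11, 362 and 562 CPM, highest in 2KR eWAT. Siglech, a defining gene of plasmacytoid dendritic cells, was at 1.45, 0.525, 3.78 and 8.61 CPM, highest where Klra17 was. Of its list, Tcf4 (12.6, 9.25, 21.3 and 40.1 CPM), Spib, Cox6a2 and Cd300c were also highest in 2KR eWAT. Ccr9 was highest in WT eWAT (11.9, 14.6, 150 and 49.0 CPM), and Bst2 and Pacsin1 in WT spleen. The 8 markers of the list together summed to 231, 204, 288 and 170 CPM. The part of these cells in the members' values was not tested.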

How the data were processed

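RNA of sorted Treg cells was measured in 4 libraries, grouped by the labels' tissue and genotype. Per the deposited readme, the authors' sequencing facility made poly-A selected libraries, read 100 bp, converted with bcl2fastq 1.8.4, aligned with Tophat 2.1.0 to UCSC mm9 (at most 4 mismatches and 10 multiple hits) and ran Cufflinks 2.0.2. The submitters' processing notes also list mm8 and DESeq. The deposited counts are whole reads per gene symbol, not normalized; which tool counted them, with which strand setting and rule for multiple hits, is not known here. The deposited FPKM values, scaled by the authors for transcript length and depth, come from Cufflinks with its intervals, per the file headers. Total counts were 13250590 for WT and 15993889 for 2KR in spleen, and 11186660 for WT and 8315569 for 2KR in eWAT, and a floor of 3 reads was 0.197 to 0.311 CPM.

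CPM used TMM factors from edgeR 4.0.16 (R 4.3.3). Ratios between 2 libraries used a prior count of 2, with an exact conditional binomial 95% interval, which covers counting error only. The 2 tissues were compared by the quasi-likelihood test of edgeR (filterByExpr, Benjamini-Hochberg, threshold 0.05) on 2 libraries an arm with both genotypes together; nothing says that these came from separate cultures or pools, so its p-values measure the spread between these libraries. On simulated counts that test recovered 25 of 100 genes changed by 1 on the log2 scale and 95 of 100 changed by 2. It made 5 false calls there. The simulated libraries of an arm did not differ by genotype, unlike the data, so this does not check the real setting. The test was read only for genes that are not members. Alternatives were DESeq2 1.42.0, limma 3.58.1 on log2(FPKM + 0.1), other scalings, a prior count of 0.5 and leaving out each library. A count of genes past 2-fold used genes at 5 CPM or more in a library compared.

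The members, the gene lists and the marker lists were chosen with earlier results of these data known. From each list up to 4 genes were named, those with the largest tissue change among genes past the threshold at 10 CPM or more, besides a fixed set of genes named whatever their values; for profile likeness, the nearest 10 genes to Klrg1 and 3 to each other member at 10 CPM were named. Marker genes other than these were named after their values were seen. Promoters came from RefSeq (5 of 7 members had an entry) and transcripts from GENCODE, both on GRCm38 and used for sequence only; no coordinate was moved between builds. Protein sequences were not used here.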

Additional observations from a re-analysis of the deposited data

Results flagged for a closer look

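The genotype ratio of Klrg1 had opposite signs in the 2 tissues: log2 -1.45 (95% counting interval -1.49 to -1.41) in eWAT and 0.37 (0.27 to 0.48) in spleen, a difference of -1.82. It stands out because the 1 library pair of each tissue moved a different way; with 1 library per group the difference was not tested.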

How the results depend on the processing

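Depth limits Klrc1, Klrb1c, the spleen and WT eWAT values of Klrb1a and Klra17, and the spleen values of Klrd1 and Klrk1. These rest on 0 to 50 reads a library. In addition, 1 library per group leaves every ratio without replicate error. No paired analysis was possible because the labels give no replicate numbers and each group has 1 library; the nearest fit, with genotype as a further term in the tissue test, gave 4487 genes higher and 4007 lower and 4 other receptor genes higher in place of 8. Over all genes, 5555 were higher in eWAT and 3832 lower; limma on log2(FPKM + 0.1) gave 3361 higher, and leaving out 1 library gave 3403 (without 2KR eWAT) to 5491 higher and 1909 (without WT spleen) to 5278 lower, with 2178 lower without 2KR spleen. The Klrg1 ratio of eWAT to spleen in 2KR was 2.80 with total counts and 2.85 by FPKM, and its ratio of 2KR to WT in eWAT was -1.19 with total counts and -1.17 by FPKM. Of members at any level, 2 were 2-fold or more lower in 2KR eWAT by counts and 1 by FPKM. Of 112 alternative values of the members' ratios, 106 stayed within the counting interval and 6 moved: besides the 4 of Klrg1, Klra17 in 2KR fat against spleen (5.95 by FPKM) and Klrk1 in eWAT by genotype (0.09 by FPKM). Of 261 alternative values for 29 named genes, 238 kept direction and call, 21 lost the call and 2 gained it, both for Foxp3, with no change of direction. A minimum of 50 CPM removes Bcar3 and Pld1 from the 10 genes nearest to Klrg1. The gaps of the other 8 do not depend on this minimum, so it does not check the likeness.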
